A study of Mus musculus with 8 samples.

Results

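Notch signaling was examined through 10 of its genes, 3 receptors (*Notch1*, *Notch2*, and *Notch3*), 3 ligands (*Dll1*, *Jag1*, and *Jag2*), and 4 effectors (*Hes1*, *Hes5*, *Hey1*, and *Hey2*). The genes were chosen by symbol, as components that steer the formation of glia. All 10 were among the 25239 deposited gene symbols, and all 10 passed a limit of 0.1 CPM on their mean (reads per gene scaled to the size of each library) over the 8 libraries, as did 18123 symbols in all.

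The RNA came from the corpus callosum (the white matter between both hemispheres) of male C57BL/6 mice (substrain C57BL/6J) aged 8 to 12 weeks. The mice were wild-type (WT) or carried a constitutive knockout of the ion channel gene *Trpa1* in all cells (TRPA1-KO, backcrossed to the same strain). They underwent bilateral common carotid artery stenosis (BCAS), in which a microcoil around each artery lowers cerebral blood flow for weeks, or a sham operation that leaves out the coils. Each label had 1 sham library from day 14 and 1 BCAS library from each of days 7, 10, and 14. Since each day had only 1 library per label, the 3 days stood as the replicates, and their spread holds differences between days, animals, and preparations together. The methods of the study describe a sample in general as an extract from an individual mouse, which the labels do not repeat for these libraries. The libraries held between 7896071 and 12952093 reads on genes, and a floor of 3 reads was worth between 0.235 CPM (deepest library) and 0.378 CPM (shallowest library).

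The knockout gene itself goes against the labels. *Trpa1* had 1 read in the sham library labelled WT and 0 reads in each of the 3 BCAS libraries labelled WT. By contrast, 10 reads were in the sham library labelled TRPA1-KO, and 11, 3, and 7 in the BCAS libraries labelled TRPA1-KO on days 7, 10, and 14. All 4 libraries labelled TRPA1-KO therefore lay above all 4 labelled WT, with a two-sided p of 0.029 in an exact permutation test, which 4 against 4 cannot go below. Counts per gene do not tell which exons the reads came from. Every direction below is accordingly one between libraries labelled WT and libraries labelled TRPA1-KO, and not between genotypes.

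The BCAS library labelled WT from day 7 also stood apart in its cell type markers. The 6 microglial markers summed to 880 CPM there, against 530 CPM on day 10 with the same label and between 304 and 421 CPM in the other 6 libraries. Values without this library are given below for *Hey2*, *Dll1*, *Notch2*, and the other pathway genes that passed a limma p of 0.05. Oligodendrocyte genes were the most abundant of the marker lists, led by *Mbp* (myelin basic protein), which ranged from 5129 to 7246 CPM. Neuronal genes were also present, led by *Snap25* (a synaptic vesicle fusion protein) at 2110 to 2945 CPM. In tissue RNA of this kind, fewer cells of a type and less RNA per cell cannot be told apart.

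In Notch signaling, a ligand on one cell binds a receptor on its neighbor, and the receptor is then cut, first by an ADAM protease and then by the gamma-secretase complex. The freed intracellular domain enters the nucleus and joins the DNA-binding protein RBPJ and a Mastermind coactivator, which switches on the *Hes* and *Hey* genes. Their products are transcriptional repressors that hold back genes of differentiation. In the brain the pathway keeps neural progenitors undifferentiated, favors astrocyte over neuronal fates, holds oligodendrocyte precursors back from maturing, and, through *Notch3* in mural cells and *Jag1* in endothelium, maintains vessel walls.

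RBPJ recognizes the letters TGGGAA, found with a preceding G in its classical sites, and this links the receptors to the effector promoters. The promoters of 8 of the 10 genes were matched by symbol in RefSeq (GRCm38.p6), as 9 windows running from 250 bases before to 50 bases after a transcription start (*Hes1* and *Hey1* were not matched). TGGGAA was searched on both strands, and 2 of the 8 genes held it, *Hes5* and *Hey2*, each with 2 matches, 1 on each strand. Both windows are shown as the promoters of effectors with these letters, from 250 bases before to 20 bases after the start, 5′ to 3′ on the gene's strand, with TGGGAA or its reverse complement TTCCCA in capitals. The *Hes5* window is chr4:154960673-154960942 on the plus strand, and the *Hey2* window is chr10:30842764-30843033 on the minus strand.
Hes5: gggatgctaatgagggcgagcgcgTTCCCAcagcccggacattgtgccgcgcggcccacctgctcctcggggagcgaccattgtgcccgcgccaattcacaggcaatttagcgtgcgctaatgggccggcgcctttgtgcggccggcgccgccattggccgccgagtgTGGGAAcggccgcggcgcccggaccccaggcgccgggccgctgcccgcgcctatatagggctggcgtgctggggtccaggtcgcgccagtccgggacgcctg
Hey2: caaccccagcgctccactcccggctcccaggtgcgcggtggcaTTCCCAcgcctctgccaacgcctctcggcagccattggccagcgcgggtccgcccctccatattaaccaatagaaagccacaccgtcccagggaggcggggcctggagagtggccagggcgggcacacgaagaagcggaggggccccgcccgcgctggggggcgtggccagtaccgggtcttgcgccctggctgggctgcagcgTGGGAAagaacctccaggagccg
In *Hes5* the matches begin 226 and 82 bases before the start, and in *Hey2* they begin 207 and 3 bases before it. All 4 matches are also matches of GTGGGAA, a string that contains TGGGAA. Of all 32851 RefSeq promoter windows, 25.6% held TGGGAA and 6.38% held GTGGGAA. The palindrome CACGTG, a binding sequence of basic helix-loop-helix proteins, was in none of the 9 windows and in 7.15% of all windows. These matches describe letters in the reference and not binding, and levels of *Hes5* and *Hey2* are given below.

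Levels of different genes were compared per length of exon in GENCODE M21, as CPM per kb. *Hey1* was the most abundant of the 10, with a median of 13.6 CPM per kb over the 8 libraries (range 10.5 to 15.0). *Jag2* followed at 5.96 (5.48 to 6.44), then *Hes1* at 4.73 (3.39 to 5.41) and *Hes5* at 4.71 (3.72 to 5.68). The receptors formed the middle of the order. *Notch1* stood at 3.41 CPM per kb (2.96 to 3.92), *Notch3* at 2.996 (2.56 to 3.46), and *Notch2* at 2.39 (1.48 to 2.90). *Jag1* at 1.44 (1.07 to 1.74), *Dll1* at 1.297 (0.717 to 1.48), and *Hey2* at 0.635 (0.409 to 0.823) were the lowest. Only *Hey1* and *Jag2* lay above the next gene in the order without overlap of their ranges, and *Jag2* overlapped *Hes5*, 2 places below it. All the other neighbors in the order overlapped, so their order is not settled beyond the spread between libraries. By the medians, 1 effector of the *Hey* pair was the highest and the other the lowest, although *Hey2* overlapped *Dll1* and lay above it in the BCAS library labelled WT from day 10 (0.823 and 0.717 CPM per kb). *Jag2* was the most abundant ligand measured. The plot of levels per length shows these ranges.

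**Figure D1:**
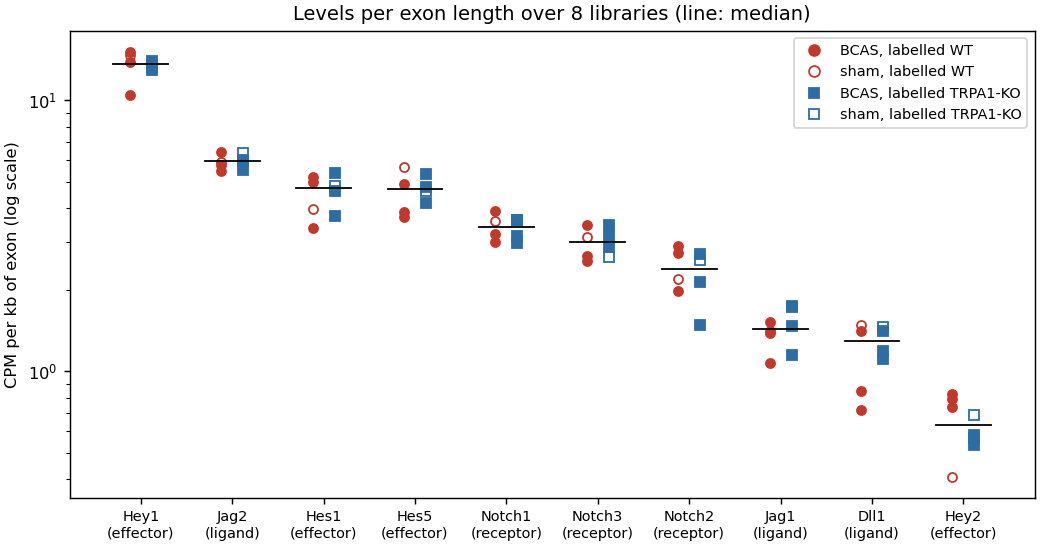
Level of each of the 10 genes in CPM per kb of exon (log axis), 1 point per library, filled for BCAS and open for sham, with the median over 8 libraries as a line. *Hey1* (10.5 to 15.0) stood apart from all others, and *Hey2* (0.409 to 0.823) was the lowest by its median.

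The receptors are single-pass membrane proteins that carry the signal into the nucleus. *Notch1* (chromosome 2 of GRCm38, 26457903 to 26516663, minus strand) is the receptor best studied in neural progenitors. Its sham values were 51.2 CPM (label WT) and 51.6 CPM (label TRPA1-KO). On days 7, 10, and 14 after BCAS it was at 55.8, 45.9, and 42.8 CPM (label WT) and at 42.2, 45.0, and 51.6 CPM (label TRPA1-KO). *Notch1* was thus lower on each later day with the label WT and higher on each later day with the label TRPA1-KO, and the labels overlapped. It was the 1 of the 10 genes with this pair of opposite orders, which 5.53% of all tested genes had.

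*Notch2*, a receptor close to *Notch1* in structure, lies on chromosome 3 from 98013527 to 98150361 on the plus strand. It was at 23.7 CPM (label WT) and 27.8 CPM (label TRPA1-KO) after sham. Its values after BCAS were 29.5, 31.3, and 21.4 CPM on days 7, 10, and 14 (label WT) and 15.9, 23.1, and 29.1 CPM (label TRPA1-KO). Its lowest library was the BCAS library labelled TRPA1-KO from day 7, and the labels crossed between day 10 and day 14. The difference between labels (WT minus TRPA1-KO, log2 of CPM + 1) was 0.85, 0.42, and -0.43 on days 7, 10, and 14. *Notch2* varied the most of the 10 beyond its counting error, with a coefficient of variation over the 8 libraries of 20.4%, 3.20 times the 6.38% that counting alone gives.

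*Notch3*, the receptor of pericytes and vascular smooth muscle, lies on chromosome 17 from 32120820 to 32166852 on the minus strand. Its sham values were 25.3 CPM (label WT) and 21.4 CPM (label TRPA1-KO). With BCAS it was at 28.0, 20.7, and 21.6 CPM (label WT) and at 25.5, 28.0, and 23.2 CPM (label TRPA1-KO), so that the highest value of either label was the same to 3 digits. Neither label had an order over the days. Annotated genes overlap *Notch1* (*0610009E02Rik* and *Gm13568* on the other strand) and *Notch3* (*Gm17276*, antisense), and *Gm42819* and *Gm42820* lie within *Notch2* on its own strand. Since the strand setting of the counting is not given in the sources used here, reads of such partners cannot be told apart from those of the receptor.

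The ligands are membrane proteins that bind a receptor on the adjacent cell. *Dll1* (Delta-like 1) lies on chromosome 17 from 15367354 to 15376872 on the minus strand and overlaps the long noncoding *A930024N18Rik* on the plus strand. After sham it had 6.26 CPM (80 reads, label WT) and 6.14 CPM (64 reads, label TRPA1-KO). After BCAS it had 3.56, 3.02, and 5.93 CPM on days 7, 10, and 14 with the label WT (40, 24, and 54 reads). The BCAS libraries labelled TRPA1-KO had 4.68, 5.02, and 5.93 CPM (42, 47, and 57 reads). All 6 BCAS libraries lay below both sham libraries, the only such case among the 10 genes. Of all tested genes, 3.59% lay below both sham libraries in all 6 BCAS libraries and 2.6% lay above both. On day 14 both labels were at 5.93 CPM, with 95% counting intervals that held both sham values, and the lowest values were those of days 7 and 10 with the label WT.

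*Jag1* (Jagged 1), a ligand of astrocytes and endothelium, lies on chromosome 2 from 137081456 to 137116644 on the minus strand. It was at 8.21 CPM and 10.1 CPM in the sham libraries labelled WT and TRPA1-KO. After BCAS it was at 8.89, 8.07, and 6.25 CPM (label WT) and at 6.68, 10.1, and 8.53 CPM (label TRPA1-KO). The labels overlapped, and the lowest value was that of the label WT on day 14. *Jag2* (Jagged 2) lies on chromosome 12 from 112907819 to 112929776 on the minus strand. It was at 41.3 CPM and 44.5 CPM after sham, at 40.1, 38.2, and 44.9 CPM after BCAS (label WT) and at 41.9, 41.6, and 38.5 CPM (label TRPA1-KO). *Jag2* was the steadiest of the 10 genes, with a coefficient of variation of 5.95%, 1.20 times that of counting, and its highest library was 1.18 times its lowest.

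The effectors are repressors of the basic helix-loop-helix class and the usual readout of the pathway. *Hes1* lies on chromosome 16 from 30064384 to 30067796 on the plus strand. It was at 8.06 CPM (label WT) and 9.88 CPM (label TRPA1-KO) after sham. In the BCAS libraries it was at 10.6, 10.2, and 6.91 CPM on days 7, 10, and 14 (label WT) and at 11.0, 9.40, and 7.60 CPM (label TRPA1-KO). It was thus lower on each later day with both labels, the 1 of the 10 genes with that order, which 3.23% of all tested genes shared. On day 14 it lay below both sham libraries of the same day with both labels, and on day 7 above both.

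*Hes5*, an effector of neural progenitors and astrocytes, lies on chromosome 4 from 154960923 to 154962371 on the plus strand and overlaps *Gm20421* on the other strand. It was at 7.75 CPM and 6.33 CPM in the sham libraries labelled WT and TRPA1-KO. After BCAS it was at 5.07, 6.68, and 5.27 CPM (label WT) and at 5.68, 6.51, and 7.28 CPM (label TRPA1-KO). Its spread was 1.17 times that of counting, so the depth leaves little of it to be read. *Hey1* lies on chromosome 3 from 8663359 to 8667256 on the minus strand. It was at 47.9 CPM and 43.3 CPM after sham, at 34.2, 45.1, and 49.0 CPM after BCAS (label WT) and at 42.1, 45.5, and 43.8 CPM (label TRPA1-KO). Its low value on day 7 with the label WT was in the library that stood apart in its microglial markers. That library also held the lowest value of *Hes5* and the highest values of *Notch1* and *Notch3*.

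*Hey2*, best known from arterial endothelium and smooth muscle, lies on chromosome 10 from 30832359 to 30842801 on the minus strand. After sham it had 1.88 CPM (24 reads, label WT) and 3.16 CPM (33 reads, label TRPA1-KO). After BCAS it had 3.38, 3.78, and 3.62 CPM with the label WT (38, 30, and 33 reads). The BCAS libraries labelled TRPA1-KO had 2.67, 2.46, and 2.60 CPM (24, 23, and 25 reads). After BCAS all 3 libraries labelled WT lay above all 3 labelled TRPA1-KO, whereas after sham the library labelled WT was the lower one. Its 23 to 38 reads per library are the lowest range of the 10 genes, although *Dll1* had fewer (24) in the BCAS library labelled WT from day 10. The 95% Clopper-Pearson intervals of the BCAS libraries overlapped between labels on each day, as the plot of all members by library shows. Such intervals cover counting error only, since PCR copies are not independent molecules.

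**Figure D2:**
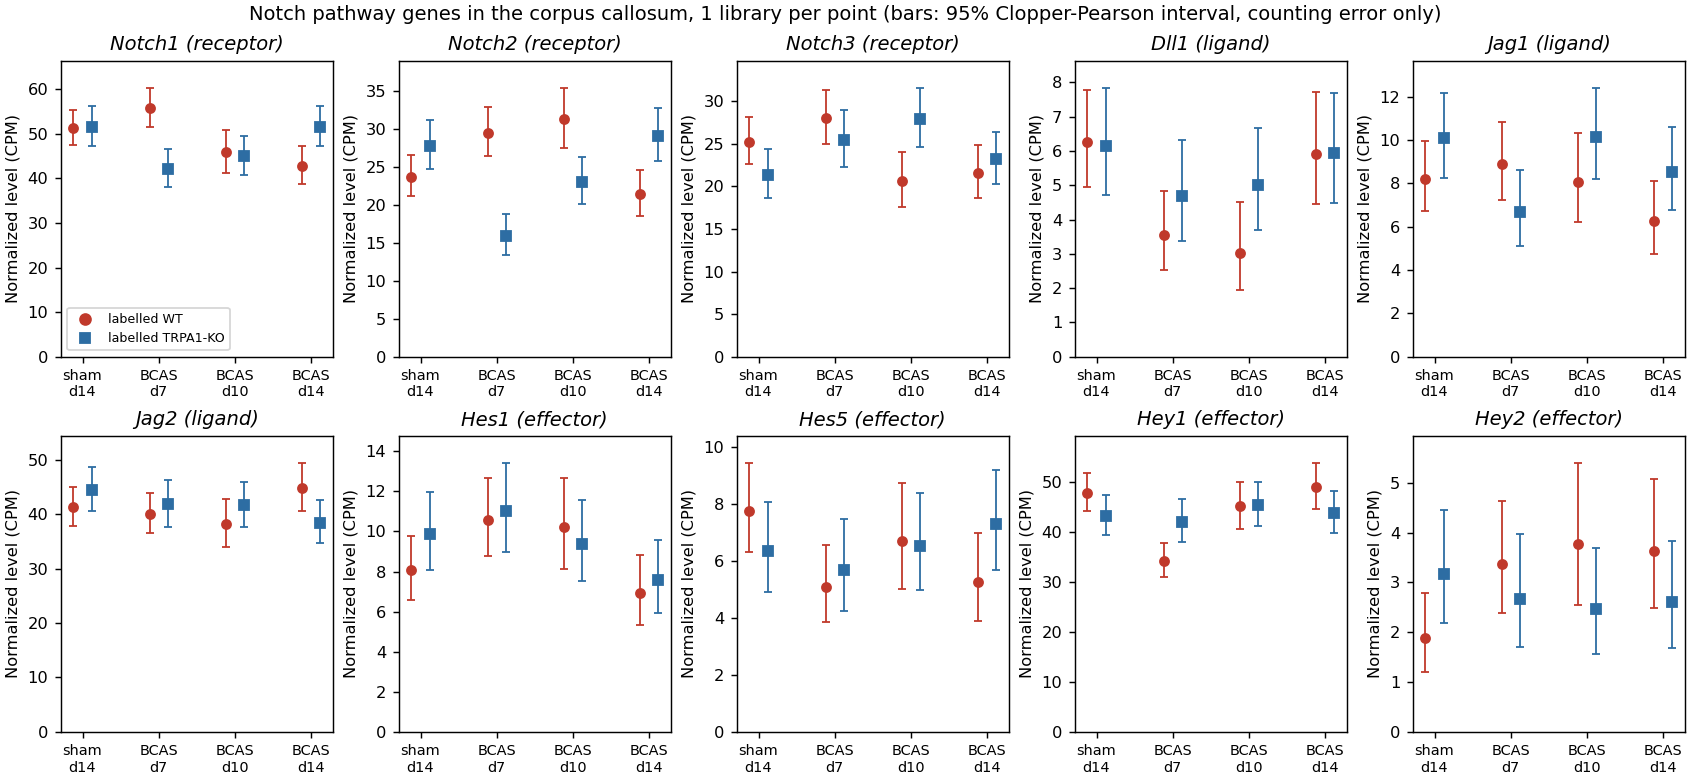
CPM of each of the 10 genes in each of the 8 libraries (sham on day 14 and BCAS on days 7, 10, and 14), circles for the label WT and squares for the label TRPA1-KO, with 95% Clopper-Pearson intervals of counting. *Dll1* was below both sham values in all 6 BCAS libraries, and *Hey2* was higher with the label WT on all 3 days after BCAS.

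The first comparison asked whether the labels differed after BCAS, over days 7, 10, and 14. None of the 10 genes passed the test, and *Hey2* was the only one whose groups did not overlap. *Hey2* averaged 3.59 ± 0.202 CPM (SD, n = 3) in the libraries labelled WT and 2.58 ± 0.110 CPM (SD, n = 3) in those labelled TRPA1-KO. Both SDs are smaller than counting error alone gives at so few reads, so they understate the uncertainty of *Hey2*. Over the 8 libraries its coefficient of variation was 22.1%, beside the 18.8% that counting alone gives. The log2 difference was 0.36 (SE 0.18, 95% interval -0.039 to 0.76), with an adjusted p of 0.98 (limma, Benjamini-Hochberg) and an exact permutation p of 0.10, two-sided, the smallest that 3 against 3 allow. *Dll1* averaged 4.17 ± 1.54 CPM (label WT) and 5.21 ± 0.649 CPM (label TRPA1-KO), a log2 difference of -0.30 (SE 0.23, 95% interval -0.82 to 0.22). *Notch2* averaged 27.4 ± 5.26 CPM and 22.7 ± 6.61 CPM, a log2 difference of 0.28 (SE 0.21, 95% interval -0.18 to 0.75). Without the BCAS library labelled WT from day 7 these differences were 0.39 (*Hey2*), -0.23 (*Dll1*), and 0.22 (*Notch2*). *Dll1* passed a limma p of 0.05 without the BCAS library labelled WT from day 14 (-0.53), and *Notch2* passed it without that labelled TRPA1-KO from day 14 (0.47), neither after adjustment. In the other direction, *Dll1* was at -0.14 without the BCAS library labelled WT from day 10, and *Notch2* was at 0.058 without that labelled TRPA1-KO from day 7, its lowest library.

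The differences of the other 7 genes lay between -0.17 (*Hes5*, SE 0.19) and 0.053 (*Notch1*, SE 0.12). Of the 10 genes, 4 were higher and 6 lower with the label WT, with a median log2 difference of -0.034 beside 0.0010 for all tested genes. Among all tested genes 4.2% had a limma p under 0.05, and of the 10 members 0 did. The count of members was also 0 with edgeR and with DESeq2. An adjusted p under 0.05 was reached by 3 genes of all tested (0.0166%, 29 genes without the BCAS library labelled WT from day 14) and by 0 members, whose smallest adjusted p was 0.98 (limma, Benjamini-Hochberg). With DESeq2 17 genes reached it, again with 0 members. Groups that do not overlap were found in 9.21% of all tested genes and in 1 of the 10 members. The 95% intervals of all 10 lay within a 2-fold difference in either direction on the log2(CPM + 1) scale, a scale that understates differences of low genes such as *Hey2* and *Dll1*. Within that limit, smaller differences were not resolved by 3 libraries per label.

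Day by day, *Hey2* was higher with the label WT on all 3 days (log2 differences of 0.25, 0.47, and 0.36), and *Dll1* was lower on all 3 (-0.32, -0.58, and -0.0011). These 2 were the only members of the 10 with the same direction on each day, a share of 20% beside 21.8% of all tested genes. The *Dll1* difference on day 14 rests on 54 and 57 reads and is far inside counting error.

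The course over the days was compared with a straight line per label through the 6 BCAS libraries, a test added after the values were seen. *Notch2* had a slope of -0.067 per day on the log2 scale with the label WT and one of 0.12 per day with the label TRPA1-KO. The difference of these slopes was -0.18 (SE 0.041, 95% interval -0.27 to -0.095), with an adjusted p of 0.042 (limma, Benjamini-Hochberg). *Notch1* had slopes of -0.052 and 0.041, a difference of -0.093 (SE 0.028, limma adjusted p = 0.12). Both receptors thus had a negative slope with the label WT and a positive one with the label TRPA1-KO, and the adjusted test of the difference was passed by *Notch2* and not by *Notch1*. A p under 0.05 in this test was reached by 2 of the 10 members beside 15.7% of all tested genes, and an adjusted p under 0.05 by 1 member beside 2.09% of all tested genes. The 379 genes behind that share became 0 without a filter or without the BCAS library labelled TRPA1-KO from day 14, 19 without that labelled WT from day 7, and 649 with edgeR. The fit has 1 library per label and day and 2 residual degrees of freedom. *Notch1* did not pass a limma p of 0.05 without the BCAS library labelled WT from day 7 or that labelled TRPA1-KO from day 14. The slope difference of *Notch2* was -0.090 without the BCAS library labelled WT from day 14 and -0.25 without that from day 7. Its adjusted p was above 0.05 with each of the 6 libraries left out (0.056 to 0.99). It was also above 0.05 without a filter (0.32), with equalized library medians (0.063), and with DESeq2 (0.20), and it was 0.018 with edgeR.

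**Figure D3:**
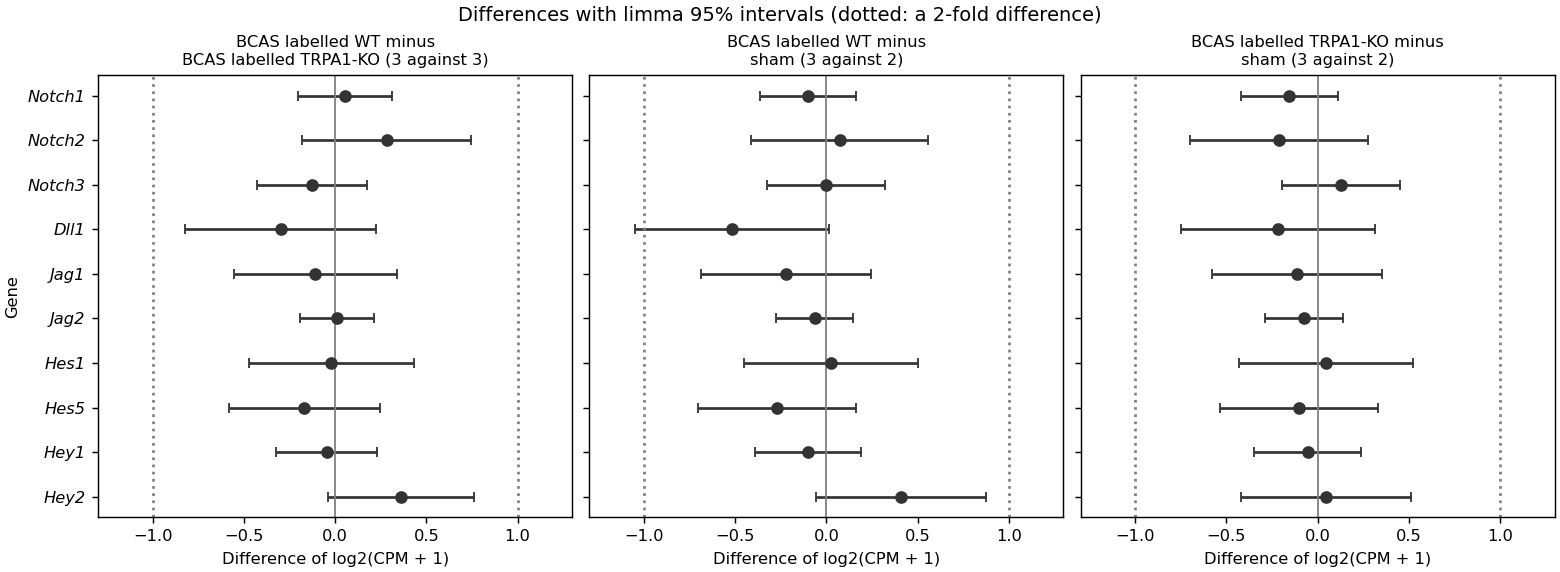
Difference of log2(CPM + 1) for each gene with its limma 95% interval, in the BCAS libraries labelled WT against those labelled TRPA1-KO (left) and in each label against both sham libraries (middle and right), with a 2-fold difference dotted. All intervals include 0, and only that of *Dll1* in the middle panel reaches past 2-fold (-1.05 to 0.015).

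The second comparison set the BCAS libraries labelled WT against both sham libraries taken as 1 group. None of the 10 genes passed the test. *Dll1* came closest, at 4.17 ± 1.54 CPM (SD, n = 3) after BCAS and 6.20 ± 0.0859 CPM (SD, n = 2) after sham, without overlap. The exact permutation p was 0.20, the smallest that 3 against 2 allow with the one-sided p doubled. The log2 difference was -0.52 (SE 0.24, 95% interval -1.05 to 0.015), with a limma p of 0.056 (adjusted 0.91, Benjamini-Hochberg). Without the BCAS library labelled WT from day 7 it was -0.45, and without that from day 14 it was -0.75 and passed a limma p of 0.05. *Hey2* averaged 3.59 ± 0.202 CPM after BCAS and 2.52 ± 0.910 CPM after sham, also without overlap, a log2 difference of 0.41 (SE 0.21, 95% interval -0.059 to 0.87). Its size rested on the sham libraries, since it was 0.67 without the sham library labelled TRPA1-KO, where it passed a limma p of 0.05, and 0.14 without that labelled WT. Without the BCAS library labelled WT from day 7 it was 0.44.

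Of the others, *Hes5* had a log2 difference of -0.27 (SE 0.20) and *Jag1* one of -0.22 (SE 0.21), and the other 6 genes lay between -0.10 (*Hey1*) and 0.072 (*Notch2*). *Hes5* came to -0.14 without the sham library labelled WT, and *Jag1* to -0.089 without that labelled TRPA1-KO. In all, 3 members were higher and 7 lower than sham, with a median of -0.083 beside -0.0012 for all tested genes. A limma p under 0.05 was reached by 5.45% of all tested genes and by 0 members, and the count of members was also 0 with edgeR and with DESeq2. No gene of all tested reached an adjusted p under 0.05 with limma or edgeR, and 24 did with DESeq2, none of them a member. With limma 45 did without the BCAS library labelled WT from day 14, again with 0 members. Non-overlapping groups were found in 19.9% of all tested genes and in 2 of the 10 members (*Dll1* and *Hey2*). The 95% interval of *Dll1* was the only one of the 10 to reach beyond a 2-fold difference.

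The third comparison set the BCAS libraries labelled TRPA1-KO against the same 2 sham libraries, so both comparisons with sham share their controls. *Dll1* was again without overlap, at 5.21 ± 0.649 CPM (SD, n = 3) against 6.20 ± 0.0859 CPM (SD, n = 2). Its log2 difference was -0.22 (SE 0.24, 95% interval -0.75 to 0.31), smaller in size than its standard error. Sham was sampled on day 14 alone, and with the day as a term in the fit, added after the data were seen, the *Dll1* difference turned to 0.094 here and was -0.20 in place of -0.52 with the label WT. *Notch2* had a log2 difference of -0.21 (SE 0.22), *Notch1* one of -0.15 (SE 0.12), and *Notch3* one of 0.13 (SE 0.15). With 1 library left out *Notch1* came to -0.092 (without the BCAS library from day 7) and *Notch3* to 0.012 (without the sham library labelled TRPA1-KO). *Notch2* ranged from -0.40 to 0.013 with 1 library left out, so its direction turned. *Hey2* had a log2 difference of 0.046 (SE 0.21) with this label. It ranged from -0.22 to 0.31 with 1 library left out, and its direction depended on the sham library kept. A limma p under 0.05 was reached by 2.74% of all tested genes and by 0 members, and by 0 members with edgeR and with DESeq2. An adjusted p under 0.05 was reached by 1 gene (0.00552%) and by 0 members with limma, and by 4 genes and 0 members with DESeq2. Non-overlapping groups were found in 18.6% of all tested genes and in 1 of the 10 members. Here 3 members were higher and 7 lower than sham, with a median of -0.089 beside -0.0021 for all tested genes.

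With the sham libraries added, all 4 libraries labelled WT were set against all 4 labelled TRPA1-KO, a design whose exact test can pass 0.05. The member with the smallest p was *Dll1*, with a log2 difference of -0.22 (SE 0.21, 95% interval -0.67 to 0.23) and an exact permutation p of 0.37. *Hey2* had a log2 difference of 0.14 (SE 0.18) and overlapped between the labels, since the sham libraries were in the opposite order. With each library left out in turn *Dll1* ranged from -0.35 (without the sham library labelled WT) to -0.067 (without the BCAS library labelled WT from day 10), and *Hey2* from 0.062 to 0.31 without the same libraries in reverse order. A limma p under 0.05 was reached by 3.94% of all tested genes and by 0 members, also 0 with edgeR and with DESeq2. Of all tested genes, 9 (0.0497%) had a limma adjusted p under 0.05, and 0 members did. Non-overlapping groups were found in 2.46% of all tested genes and in 0 members, whose median was -0.028 beside 0.0021 for all tested genes. By role, the median log2 difference was 0.037 for the 3 receptors, -0.15 for the 3 ligands, and -0.031 for the 4 effectors. Among the ligands *Jag1* was at -0.15 (SE 0.16) and *Jag2* at -0.018 (SE 0.073), and none passed the test. With 1 library left out *Jag1* ranged from -0.26 to -0.055 and *Jag2* from -0.060 to 0.016.

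Per library, the 10 genes had a median log2 difference from the sham mean of 0.042, -0.11, and -0.18 on days 7, 10, and 14 with the label WT. With the label TRPA1-KO the same median was -0.19, -0.022, and -0.028. The libraries with the highest and lowest value of a member were spread, since 7 of the 8 libraries held neither more than 2 of the 10 highest nor more than 2 of the 10 lowest values. The BCAS library labelled WT from day 10 held 3 of the lowest.

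The wider pathway was covered by 43 further genes, all of them tested, whose differences are shown by role in the plot of other pathway genes. Between the labels after BCAS, a limma p under 0.05 was found for 1 of the 43, *Adam17*, a protease that can make the first cut in the receptor. Of all tested genes 4.2% passed the same limit. *Adam17* was at 37.4, 29.6, and 24.9 CPM (label WT, days 7, 10, and 14) and at 22.9, 21.0, and 26.5 CPM (label TRPA1-KO), beside 23.9 and 24.3 CPM after sham. The log2 difference was 0.36 (SE 0.15, limma adjusted p = 0.98, exact permutation p = 0.20), and the labels overlapped on account of day 14. The highest value was in the BCAS library labelled WT from day 7, the one that stood apart in its microglial markers, and without it the log2 difference was 0.21. *Adam17* did not pass a limma p of 0.05 without that library, without the BCAS library labelled WT from day 10 (0.37), or without those labelled TRPA1-KO from day 7 (0.34) or day 10 (0.28). *Adam10*, the principal protease of this step, was at 89.3 to 107 CPM over the 8 libraries, with a log2 difference of 0.098 (SE 0.081).

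Against sham, 3 of the 43 passed a limma p of 0.05 with the label WT, a share of the order of the 5.45% of all tested genes, and all of them were higher after BCAS. *Dtx4*, an E3 ubiquitin ligase of the Deltex family that acts on Notch, was at 67.7, 66.7, and 53.3 CPM after BCAS and at 48.2 and 42.5 CPM after sham (log2 difference 0.45, SE 0.11). *Dner*, a Delta-like transmembrane protein of neurons, was at 116, 120, and 115 CPM after BCAS and at 99.7 and 93.4 CPM after sham (log2 difference 0.27, SE 0.072). *Mfng* (Manic fringe), a glycosyltransferase that modifies Notch receptors, was at 4.98, 4.03, and 3.62 CPM and at 2.35 and 2.69 CPM (log2 difference 0.56, SE 0.23). Without the BCAS library labelled WT from day 7 the differences were 0.39 (*Dtx4*), 0.28 (*Dner*), and 0.46 (*Mfng*), of which *Mfng* did not pass. *Mfng* also did not pass without either sham library (0.49 without that labelled WT and 0.63 without that labelled TRPA1-KO) or without the BCAS library labelled WT from day 10 (0.58). None kept a p under 0.05 after adjustment over all tested genes (limma adjusted p = 0.79, 0.79, and 0.90). None overlapped with sham (exact permutation p = 0.20 each, the smallest possible with the one-sided p doubled).

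In the BCAS libraries labelled TRPA1-KO against sham, *Dner* had a log2 difference of 0.19 (SE 0.072), at 113, 111, and 107 CPM after BCAS. Its limma adjusted p was 1. It was the 1 gene of the 43 with a limma p under 0.05, beside 2.74% of all tested genes, and had passed with the label WT too, in comparisons that share their sham libraries. With the label TRPA1-KO it did not pass without the sham library labelled TRPA1-KO (0.14) or without the BCAS library from day 7 (0.17) or day 10 (0.19). Between all libraries of the labels, 0 of the 43 had a limma p under 0.05 (3.94% of all tested genes), 0 with an adjustment, and the smallest were *Nrarp*, a feedback inhibitor (log2 difference -0.24, SE 0.11), and *Hes6*, a *Hes* relative that opposes *Hes1* (log2 difference -0.36, SE 0.17).

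By role, the glycosylation enzymes had a median log2 difference of 0.097 between the labels after BCAS, the cleavage genes one of 0.054, and the transcription complex one of 0.081. The ubiquitination and trafficking genes had a median of -0.014, the other receptor and ligands one of -0.048, and the other effectors one of -0.10. Over all 43 genes the median was 0.026 between the labels, 0.016 for the label WT against sham, and -0.0026 for the label TRPA1-KO against sham. *Rbpj*, the DNA-binding partner of the receptors, was at 41.4 to 52.6 CPM over the 8 libraries, highest in the day 7 BCAS library of the label WT. *Aph1b* and *Aph1c*, gamma-secretase subunits of near-identical sequence, may share reads and are uncertain.

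**Figure D4:**
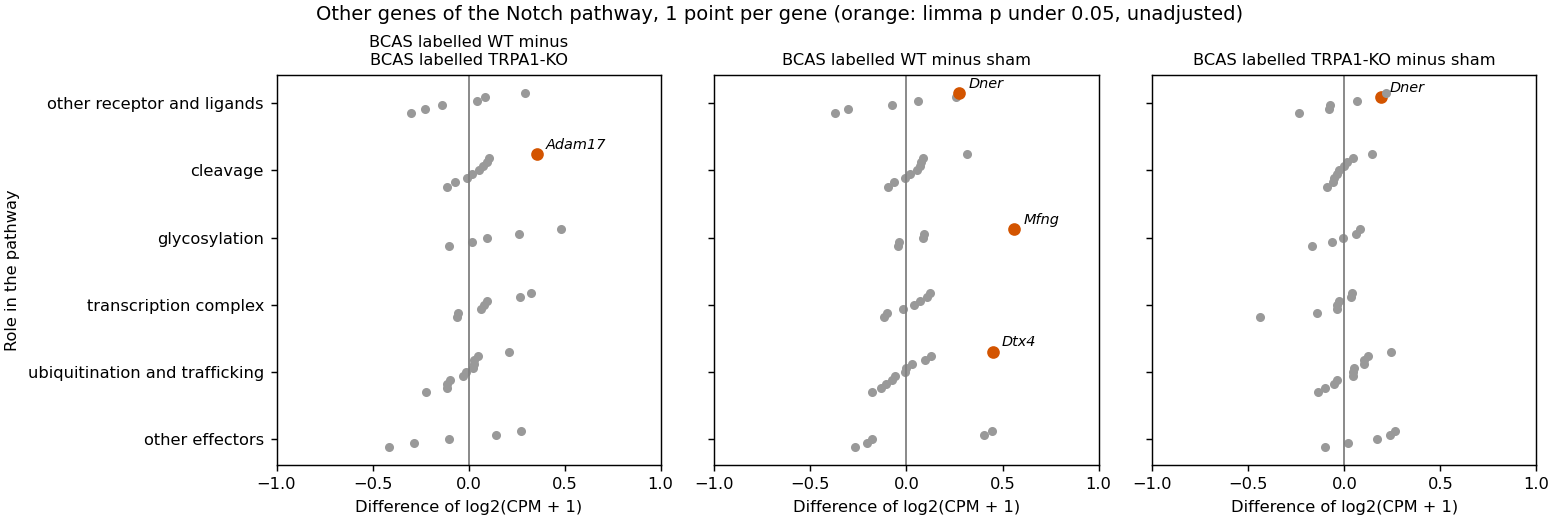
Difference of log2(CPM + 1) for 43 other genes of the Notch pathway grouped by role, 1 point per gene, with genes of limma p under 0.05 before adjustment in orange and named. The number of orange genes was 1 between the labels after BCAS (left), 3 for the label WT against sham (middle), and 1 for the label TRPA1-KO against sham (right).

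For genes averaging 5 CPM or more, the likeness of profiles over the 8 libraries was measured as the root mean square difference of standardized log2 values, over 12426 candidates and for the member of each role with the widest range. Nearest to *Notch2* were *Naa40* (0.179), *Soga1* (0.317), and *Npepl1* (0.329). Nearest to *Dll1* were *Kctd17* (0.201), *Anapc4* (0.210), and *4933431E20Rik* (0.224), and nearest to *Hes1* were *Ccn1* (0.283), *Cchcr1* (0.293), and *Ushbp1* (0.331). None of the 9 was a gene of the pathway lists. With 8 libraries and this many candidates, such nearness describes these libraries.

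Since several of the genes belong to particular cell types, marker lists were read in the same fits, and the plot of *Dll1* and *Hey2* beside the marker lists gives their sums. All genes of each list were in the table, and none was at 0 in all libraries. The 10 astrocyte markers summed to 4828 and 4611 CPM after sham (label WT and TRPA1-KO), to 6177, 5739, and 4719 CPM after BCAS (label WT) and to 4378, 4570, and 5661 CPM (label TRPA1-KO). *Gfap*, a filament protein of reactive astrocytes, was at 1415, 1060, and 157 CPM of these (label WT) and at 167, 169, and 427 CPM (label TRPA1-KO), beside 200.4 and 234 CPM after sham. *Slc1a2*, a glutamate transporter and the most abundant of the list, was at 2675 CPM on day 7 with the label WT and at 3045 and 2770 CPM after sham. *Gfap* thus gave the largest part of the higher sums of days 7 and 10 with the label WT. *Aldh1l1*, a folate enzyme of astrocytes, was at 94.5, 83.3, and 55.3 CPM (label WT) and at 61.2, 51.7, and 52.6 CPM (label TRPA1-KO), and was the 1 marker of the list with a limma p under 0.05 (log2 difference 0.46, SE 0.17, adjusted p = 0.98). Its highest value was in the BCAS library labelled WT from day 7, the one that stood apart in its microglial markers. *Aqp4*, the water channel of astrocyte endfeet, was at 155, 188, and 80.4 CPM and at 88.8, 85.6, and 114 CPM. The list's median log2 difference was 0.14 between the labels after BCAS. That of *Gfap* was 1.43 (SE 0.70, limma adjusted p = 0.98), with 2.41 and a limma p of 3.6e-05 before adjustment over all genes without the BCAS library labelled WT from day 14, and 0.83 without that from day 7. The library sums of astrocyte and microglial markers were highest on days 7 and 10 with the label WT, the libraries in which *Dll1* was lowest. The part of these markers in the *Dll1* values was not tested.

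The 9 endothelial markers, led by *Slc2a1*, summed to 450, 415, and 415 CPM after BCAS (label WT) and to 371, 387, and 402 CPM (label TRPA1-KO), without overlap and in the same order of labels as *Hey2*. After sham they summed to 441 and 388 CPM with the labels WT and TRPA1-KO, the opposite order to *Hey2*. *Ly6c1* (log2 difference 0.27, SE 0.098) and *Pecam1* (0.33, SE 0.14) had a limma p under 0.05 between the labels after BCAS. The 8 mural markers, led by *Rgs5*, summed to between 213 and 238 CPM in all 8 libraries. Within that list *Myh11* was lower (log2 difference -1.10, SE 0.34) and *Pdgfrb* higher (0.34, SE 0.12) in the label WT against sham. Both had a limma p under 0.05 before adjustment (limma adjusted p = 0.84 and 0.88). The part of endothelial markers in the *Hey2* values was not tested.

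The 8 oligodendrocyte markers summed to 15827 and 17362 CPM after sham and to between 12932 and 14620 CPM in the 6 BCAS libraries, all below sham, as *Dll1* was. The 6 markers of oligodendrocyte precursors, led by *Olig1*, summed to between 288 and 373 CPM, the 8 neuronal markers to between 5339 and 7019 CPM, and the 5 ependymal markers, led by *Rarres2*, to between 27.5 and 43.0 CPM. Within the neuronal list, *Drd1*, a dopamine receptor of striatal neurons, was at 57.1 and 73.7 CPM after sham, at 32.1, 44.7, and 40.3 CPM after BCAS (label WT) and at 35.0, 55.0, and 52.0 CPM (label TRPA1-KO). *Ppp1r1b*, a phosphoprotein of the same neurons, was at 412 and 542 CPM after sham and at 233 to 380 CPM after BCAS. Both lay below both sham libraries in all 6 BCAS libraries, as *Dll1* did. Their log2 differences from sham were -0.73 and -0.75 with the label WT and -0.47 and -0.53 with the label TRPA1-KO (limma adjusted p = 0.79 and 0.79, then 1 and 1). With the label TRPA1-KO they were -0.29 and -0.33 without the sham library labelled TRPA1-KO, and -0.27 and -0.35 without the BCAS library from day 7, and did not pass a limma p of 0.05. These genes were picked from the list for their values. *Drd2*, another dopamine receptor of striatal neurons, was at 35.7 and 64.2 CPM after sham. After BCAS it was at 20.4, 29.7, and 29.0 CPM with the label WT, below both sham libraries. With the label TRPA1-KO it was at 19.9, 42.1, and 40.9 CPM, overlapping sham. The median of the 8 neuronal markers against sham was -0.042 (label WT) and -0.012 (label TRPA1-KO). The 5 choroid plexus markers, led by *Clic6*, summed to between 2.90 and 8.72 CPM. The 5 neural progenitor markers, led by *Dcx*, summed to 123 CPM in the BCAS library labelled WT from day 7 and to between 66.2 and 84.0 CPM in the other 7. That sum rested on the proliferation genes *Mki67* (24.4 CPM there, 4.45 to 9.21 CPM elsewhere) and *Top2a* (24.5 CPM, 4.56 to 9.78 CPM elsewhere), whereas *Dcx* was at 45.4 CPM there and at 39.4 to 47.5 CPM elsewhere. *Igfbpl1*, a gene of newborn neurons, was at 1.43 to 1.78 CPM after BCAS with the label WT and at 2.66 and 3.16 CPM after sham. With the label TRPA1-KO it was at 1.665 to 3.42 CPM after BCAS, overlapping sham. The part of these lists in the values of the 10 genes was not tested.

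The marker lists were chosen with earlier results of these data known, so their shares below describe these libraries and are not a test. Between the labels after BCAS, a limma p under 0.05 was reached by 1 of 10 astrocyte, 2 of 9 endothelial, 0 of 8 mural, 1 of 8 oligodendrocyte, 2 of 6 precursor, 2 of 6 microglial, 0 of 8 neuronal, 0 of 5 ependymal, 0 of 5 choroid plexus, and 0 of 5 progenitor markers. These were 8 of all 70 markers (11.4%), beside 4.2% of all tested genes, and all 8 were higher with the label WT. Between all libraries of the labels 4 of 70 did (5.71%, 3 higher and 1 lower with the label WT), beside 3.94% of all tested genes. In the label WT against sham the counts were 1, 1, 2, 3, 1, 1, 3, 0, 1, and 1 in the same order of lists, and in the label TRPA1-KO against sham they were 0, 1, 0, 3, 1, 0, 2, 0, 1, and 0. Over all lists these were 14 of 70 (20%, of which 4 were higher and 10 lower than sham) beside 5.45% of all tested genes, and 8 of 70 (11.4%, of which 1 was higher and 7 lower) beside 2.74%. The only marker with a limma adjusted p under 0.05 in any of these was *Mog*, a myelin glycoprotein, in the label TRPA1-KO against sham (log2 difference -0.73, SE 0.084, adjusted p = 0.046, Benjamini-Hochberg). That call was lost in 9 of 16 alternatives, among them 7 of the 8 libraries left out, no filter (0.12), and the day as a block (0.64), with a log2 difference of -0.80 to -0.66 in all.

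**Figure D5:**
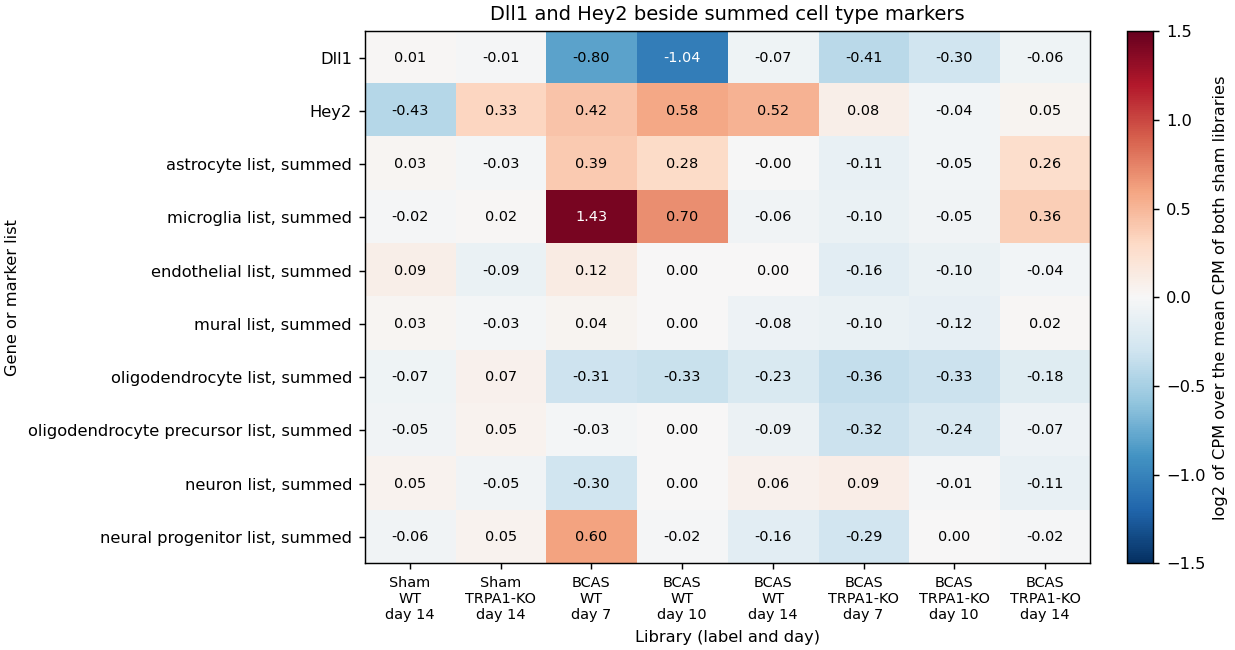
Log2 ratio of each library's CPM to the mean CPM of both sham libraries, for *Dll1*, *Hey2*, and the summed CPM of 8 marker lists, with columns for the 8 libraries. *Dll1* was at -0.80 and -1.04 in the BCAS libraries labelled WT from days 7 and 10, where the microglial sum was at 1.43 and 0.70.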

How the data were processed

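Polyadenylated RNA was selected from corpus callosum and made into 8 libraries. The authors mapped reads to GRCm38 (mm10) with HISAT version 2.1.0, used subread version 2.0.1 for counts per gene, and scaled these with edgeR version 3.34.1. The annotation and strand setting are not given in the sources used here. The deposited signal is in each library the read counts per gene divided by the effective library size, scaled to CPM (sums of 966202 to 1022161, not log-transformed). All values (100%, within 0.001 of a read) were whole multiples of 1 read, and whole reads were recovered, 7896071 to 12952093 per library.

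Libraries were grouped by label. The 10 genes and all lists were chosen with earlier results of these data known. Some genes of the lists are not reported here. The scale of the tests was log2(CPM + 1). The tool was limma version 3.58.1 (R version 4.3.3, trend, two-sided, Benjamini-Hochberg), over 18123 genes averaging 0.1 CPM or more. Comparisons between BCAS groups used 6 libraries, and those with sham used 8 in 1 fit. Single genes also had exact permutation tests (scipy version 1.17.1), whose two-sided p is the doubled one-sided p. The methods describe samples in general as extracts from individual mice, on different days here, so p-values measure the spread between mice, days, and preparations together, which may be in part technical. Genes were named by rule, as the members with all their values, up to 5 other pathway genes with the smallest p under 0.05 (or 2 where none passed), the likest profiles, and marker genes under 0.05 as counts with examples. The named markers and *Rbpj*, *Adam10*, and *Mbp* were picked after their values were seen. As alternatives, each library was left out, the filter was dropped or set at 1 CPM, the pseudocount was 0.1, limma was robust, medians were equalized, the day was a block, the BCAS comparison was fitted on 8 libraries, and, on the recovered reads, edgeR version 4.0.16 and DESeq2 version 1.42.0 were run. On data simulated for the BCAS comparison of the labels (18123 genes), limma gave an adjusted p under 0.05 to 96% of genes changed 2-fold and a p under 0.05 to 5.1% of unchanged genes. The changed genes were drawn from those averaging 5 CPM or more, so the share does not cover *Hey2* (2.94 CPM). All genes had the same fixed dispersion and no difference between days, so the share does not hold for members that vary more. The difference of day slopes between the labels (limma, 6 libraries) and the block for the day in the comparisons with sham were added after the data were seen. On data simulated for the slopes, limma gave a p under 0.05 to 4.55% of unchanged genes and to 85% of genes with a slope difference of 0.2 (log2 per day), and an adjusted p under 0.05 to 7.5% of the latter. The changed genes and the dispersion were set as in the first simulation. Positions and exon lengths come from GENCODE M21 and promoters from RefSeq GRCm38.p6.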

Additional observations from a re-analysis of the deposited data

Results flagged for a closer look

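The slope over days 7, 10, and 14 after BCAS differed between the labels for 2 of the 10 genes at a limma p under 0.05, a share reached by 15.7% of all tested genes. The difference (label WT minus label TRPA1-KO, log2 per day) was -0.184 for *Notch2* and -0.093 for *Notch1*. The limma adjusted p was 0.042 and 0.12. Before adjustment, the limma p of *Notch1* was 0.10 without the BCAS library labelled WT from day 7. It was 0.18 without that labelled TRPA1-KO from day 14, and the DESeq2 p of *Notch1* was 0.059. The limma p of *Notch2* was 0.19 without the BCAS library labelled WT from day 14. The test was added after the values were seen, and the adjusted p of *Notch2* was above 0.05 with each of the 6 libraries left out (0.056 to 0.99), without a filter (0.32), with equalized medians (0.063), and with DESeq2 (0.20).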

How the results depend on the processing

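Over the 10 genes, 4 comparisons, and all settings, 420 of 630 differences could move, the other 210 having the same value by construction. Of the 420, 371 kept their direction, 41 reversed with a library left out, and 8 reversed otherwise. Of all 630, 6 passed a p of 0.05. None reached an adjusted p under 0.05 in any setting or tool. The count of members with a p under 0.05 was 1 without a filter between the labels after BCAS (*Hey2*, log2 difference 0.36) and 1 with robust limma for the label WT against sham (*Dll1*, -0.52). *Notch3* in the label WT against sham was at 0.011 with edgeR and 0.015 with DESeq2 (-0.0015 with limma), and *Hey1* between all libraries of the labels was at -0.0017 with equalized medians (0.0005 otherwise). DESeq2 called 254 genes for the label TRPA1-KO against sham, where limma called 496. The split of calls, higher and lower, moved by over 10 percentage points with the count model in 2 comparisons. Between the labels after BCAS it was 435 and 326 with limma, 634 and 309 with edgeR, and 443 and 152 with DESeq2, and in the label WT against sham it was 443 and 545, 696 and 541, and 469 and 353. In the label TRPA1-KO against sham it was 194 and 302, 214 and 302, and 105 and 149. The cause was not tested.

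With each library left out in turn, the genes with a p under 0.05 ranged from 325 to 1846 between the labels after BCAS, from 357 to 2013 for the label WT against sham, from 191 to 735 for the label TRPA1-KO against sham, and from 490 to 1064 between all libraries of the labels. The counts of 1846 and 2013 came without the BCAS library labelled WT from day 14, that of 325 without the BCAS library labelled TRPA1-KO from day 10, and those of 357 and 191 without the sham library labelled TRPA1-KO. Without the BCAS library labelled TRPA1-KO from day 7 the comparison of that label with sham had 325. Members under 0.05 ranged from 0 to 1 in the first comparison (*Dll1* at -0.53 without the BCAS library labelled WT from day 14, and *Notch2* at 0.47 without the BCAS library labelled TRPA1-KO from day 14). They ranged from 0 to 1 in the second (*Dll1* at -0.75 without the same WT library, and *Hey2* at 0.67 without the sham library labelled TRPA1-KO, the lone sham library then being taken to vary like the other groups). In the other comparisons the count stayed at 0. Genes with an adjusted p under 0.05 ranged from 1 to 29, 0 to 45, 0 to 1, and 6 to 14 in the 4 comparisons. These ranges of log2 differences crossed 0. Between the labels after BCAS they were -0.056 to 0.13 for *Notch1*, -0.25 to 0.020 for *Jag1*, -0.053 to 0.061 for *Jag2*, -0.15 to 0.15 for *Hes1*, and -0.15 to 0.10 for *Hey1*. In the label WT against sham they were -0.039 to 0.23 for *Notch2*, -0.13 to 0.11 for *Notch3*, -0.11 to 0.20 for *Hes1*, and -0.21 to 0.047 for *Hey1*. In the label TRPA1-KO against sham they were -0.40 to 0.013 for *Notch2*, -0.24 to 0.029 for *Jag1*, -0.087 to 0.18 for *Hes1*, -0.23 to 0.026 for *Hes5*, -0.13 to 0.017 for *Hey1*, and -0.22 to 0.31 for *Hey2*. Between all libraries of the labels they were -0.027 to 0.098 for *Notch1*, -0.020 to 0.26 for *Notch2*, -0.12 to 0.025 for *Notch3*, -0.060 to 0.016 for *Jag2*, -0.17 to 0.022 for *Hes1*, -0.16 to 0.013 for *Hes5*, and -0.054 to 0.11 for *Hey1*. The other ranges did not cross 0. Between the labels after BCAS they were 0.058 to 0.47 for *Notch2*, -0.26 to -0.048 for *Notch3*, -0.53 to -0.14 for *Dll1*, -0.28 to -0.094 for *Hes5*, and 0.33 to 0.39 for *Hey2*. In the label WT against sham they were -0.21 to -0.023 for *Notch1*, -0.75 to -0.36 for *Dll1*, -0.35 to -0.089 for *Jag1*, -0.13 to -0.012 for *Jag2*, -0.40 to -0.14 for *Hes5*, and 0.14 to 0.67 for *Hey2*. In the label TRPA1-KO against sham they were -0.23 to -0.092 for *Notch1*, 0.012 to 0.24 for *Notch3*, -0.30 to -0.16 for *Dll1*, and -0.13 to -0.023 for *Jag2*. Between all libraries of the labels they were -0.35 to -0.067 for *Dll1*, -0.26 to -0.055 for *Jag1*, and 0.062 to 0.31 for *Hey2*.

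In the fit with a replicate block for the day, a p under 0.05 was found for 632 genes between the labels after BCAS (761 without it) and 685 between all libraries of the labels (714), with 0 members in both. For libraries of the same day, deviations from the group means correlated at -0.10, 0.0051, and -0.26 on days 7, 10, and 14. With 1 library per label and day, these values cannot show whether such libraries shared a preparation. In the comparisons with sham the block, added after the data were seen, ties sham to BCAS through day 14 alone. With it a p under 0.05 was found for 509 genes with the label WT (988 without it) and 371 with the label TRPA1-KO (496), with 0 members in both. The block reversed *Hes1* (-0.28) and *Hey1* (0.0023) with the label WT, and *Dll1* (0.094), *Hes1* (-0.26), and *Hey1* (0.050) with the label TRPA1-KO, and *Dll1* with the label WT was at -0.20. The cause was not tested. Depth limits *Hey2* (23 to 38 reads) and *Dll1* (24 to 80 reads) the most of the 10 genes.

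For the difference of day slopes, DESeq2 called 1264 genes at a p under 0.05 (2853 with limma) and 1 member (2 with limma). The split of calls was 1236 and 1617 with limma, 1268 and 1619 with edgeR, 610 and 654 with DESeq2, and 1507 and 1412 with equalized medians. With each library left out the genes ranged from 838 (without the BCAS library labelled TRPA1-KO from day 14) to 3431, with 1343 without that labelled TRPA1-KO from day 7, and the members from 1 to 3. The slope differences crossed 0 with a library left out for *Notch3* (-0.12 to 0.037), *Dll1* (-0.10 to 0.15), *Jag2* (-0.0056 to 0.074), *Hes1* (-0.056 to 0.053), *Hes5* (-0.12 to 0.069), and *Hey2* (-0.0093 to 0.045).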
